A study of Homo sapiens with 4 samples.

Results

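The genes described here code for the proteins of the mitochondrial ribosome. They are the protein-coding genes whose symbol begins with MRPL or MRPS followed by a digit and whose count averaged 10 or more reads over the 4 libraries. All 78 genes with such a symbol met the minimum, 49 with an MRPL symbol (large subunit) and 29 with an MRPS symbol (small subunit), of 58302 genes listed and 16181 tested. The libraries were made at day 3 from NCI-H838, a lung cancer line of human origin. Both groups were clonal MIB1-iKO cells, grown from single cells and carrying a piggyBac construct with a guide RNA against MIB1, a doxycycline-inducible Cas9 and puromycin resistance. The no dox group (n = 2) had no doxycycline and the dox group (n = 2) had 0.5 μg/mL, which starts disruption of MIB1 (Mind Bomb 1), an E3 ubiquitin ligase. The study asked which transcripts change on loss of MIB1 under basal BMP signaling. No library had dox without the guide and Cas9, so an effect of dox itself and an effect of MIB1 loss cannot be told apart.

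Mitochondria keep a ribosome of their own, which makes the few proteins encoded by the mitochondrial genome, all of them parts of the respiratory chain and ATP synthase. Its RNAs come from that genome, whereas its proteins are encoded in the nucleus, made in the cytosol and imported. The large subunit forms the peptide bond and the small subunit reads the message. Doxycycline is a tetracycline, a class that binds the small subunit of bacterial ribosomes at the site where the aminoacyl-tRNA enters, and it also acts on the mitochondrial ribosome. The comparison asks whether the transcripts of either subunit differ with dox.

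The promoters of these genes share short letter patterns, and the windows below show the one whose share exceeded that in other promoters by the largest ratio among the 3 patterns searched. RefSeq promoters (GRCh38.p14, 250 bases before to 50 after the start of transcription) were found for 69 of the 78 genes. The letters AAGATGGCG, bound by the factor YY1, were looked for on both strands and stood in 13 of the 69 (18.8%), against 4.09% of the 9895 promoters of protein-coding genes tested and 1.85% of all 27305 promoters in the table. When such letters span the first codon shortly after the start of transcription, they are also known as a translation initiator of messages with a short 5′ leader. They occurred 14 times in the 13 genes, 12 times on the strand of the gene and 10 times within the first 50 transcribed bases. In 9 of the 14 windows the ATG inside the pattern was an annotated start codon in GENCODE release 44. These 9 windows are printed 5′ to 3′ on the strand of the gene, with the pattern in capitals and up to 10 bases on either side.
MRPL22 (chr5:154941098-154941122, plus strand): gggagggcgaAAGATGGCGgcggca
MRPL38 (chr17:75904860-75904888, minus strand): ggccggagggAAGATGGCGgcgccctggt
MRPL46 (chr15:88467362-88467390, minus strand): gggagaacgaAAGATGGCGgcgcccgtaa
MRPL50 (chr9:101398577-101398605, minus strand): gatctcatcgAAGATGGCGgcgcgatctg
MRPS10 (chr6:42217834-42217862, minus strand): cgggaccggcAAGATGGCGgcgcggacag
MRPS18A (chr6:43687764-43687792, minus strand): taggtttttgAAGATGGCGgccctcaagg
MRPS18B (chr6:30617853-30617881, plus strand): ggcgtacgtcAAGATGGCGgcgtctgtat
MRPS24 (chr7:43869480-43869508, minus strand): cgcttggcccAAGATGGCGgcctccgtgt
MRPS30 (chr5:44808950-44808978, plus strand): atcgcgggcaAAGATGGCGgcggccaggt
The pattern was followed by GC in 10 of the 14 windows. In the large subunit it marked proteins as different as MRPL22, which lines the exit tunnel, and MRPL46, which has no bacterial counterpart.

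The letters CCGGAAG, read by ETS family factors such as GABPA, stood in 29 of the 69 promoters (42.0%), against 20.1% for protein-coding genes tested and 10.7% for all promoters. The letters GCGCANGCG, read by NRF1, stood in 13 (18.8%), against 15.1% and 8.05%. At least 1 of the 3 patterns was present in 45 (65.2%), against 34.3% and 18.3%. The ETS and YY1 patterns can overlap by AAG. A match is a description of the sequence and not a bound site. The median log2 fold change of dox against no dox was -0.02 with the ETS pattern and -0.02 without it, -0.01 with and -0.02 without the NRF1 pattern, and -0.01 with and -0.02 without the YY1 pattern. The stretches upstream of MRPL44, MRPS18C and MRPL50 are printed because these genes had the lowest p-values of their subunits. They hold no annotated exon, and capitals mark the NRF1 pattern.
MRPL44 (chr2:223957213-223957462, plus strand): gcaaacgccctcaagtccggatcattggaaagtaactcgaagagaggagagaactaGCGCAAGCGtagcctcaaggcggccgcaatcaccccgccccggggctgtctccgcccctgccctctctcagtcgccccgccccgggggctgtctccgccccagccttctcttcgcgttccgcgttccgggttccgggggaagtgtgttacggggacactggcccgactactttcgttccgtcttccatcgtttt
MRPS18C (chr4:83455856-83455931, plus strand): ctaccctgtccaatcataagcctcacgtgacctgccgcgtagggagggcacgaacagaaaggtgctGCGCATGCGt
MRPL50 (chr9:101398619-101398850, minus strand): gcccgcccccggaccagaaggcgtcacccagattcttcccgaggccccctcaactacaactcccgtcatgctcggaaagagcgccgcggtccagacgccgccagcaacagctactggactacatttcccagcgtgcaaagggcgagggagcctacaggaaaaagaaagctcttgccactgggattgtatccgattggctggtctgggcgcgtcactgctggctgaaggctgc
The first and the third end at the RefSeq start of transcription, and the MRPS18C stretch ends 126 bases before it. The MRPS27 promoter, next in order of p in the small subunit, had no stretch free of annotated exons.

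No transcript of the mitochondrial ribosome differed between dox and no dox beyond the spread of the replicates by the thresholds used. Calls were made in limma at 2-fold or more with an adjusted p no higher than 0.05, which 6 of 16181 genes tested passed (0.0371%). None of the 78 genes did, in limma, edgeR or DESeq2, and their lowest adjusted p was 0.45 (limma), for MRPL44. The log2 fold changes lay between -0.34, for MRPS18C, and 0.30, for MRPL44, with a median of -0.02 and the middle 50% between -0.08 and 0.06. At an unadjusted p under 0.05 there was 1 gene lower with dox, MRPS18C, and 1 gene higher, MRPL44, against 4.59% of all genes tested in the lower and 4.68% in the higher direction. On the scale that limma tests, log2 CPM (reads scaled to a common total) after quantile normalization, the 2 groups of libraries did not overlap in 7 genes that were lower with dox (MRPL3, MRPL30, MRPL45, MRPL51, MRPS2, MRPS18C and MRPS35), where 19.1% of all genes tested did so. They did not overlap in 10 genes that were higher (MRPL2, MRPL10, MRPL17, MRPL24, MRPL41, MRPL43, MRPL44, MRPL53, MRPS18B and MRPS27), against 19.5%. In RPKM, the authors' reads scaled for length and depth, the groups were apart in 5 genes that were lower (20.5% of all genes tested) and 6 that were higher (18.1%). Apart on both scales were MRPL45, MRPS2 and MRPS18C, which were lower, and MRPL2, MRPL10, MRPL44 and MRPS27, which were higher. In all, 33 of 78 genes (42.3%) had a log2 fold change above 0, against 49.9% of all genes tested. The labels do not say whether replicates came from separate cultures, so the p-values measure only the spread between these libraries, which may be technical. With groups of this size an exact permutation test of 1 gene gives no p below 0.333, and fewer cells of a kind cannot be told apart from less RNA per cell.

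**Figure D1:**
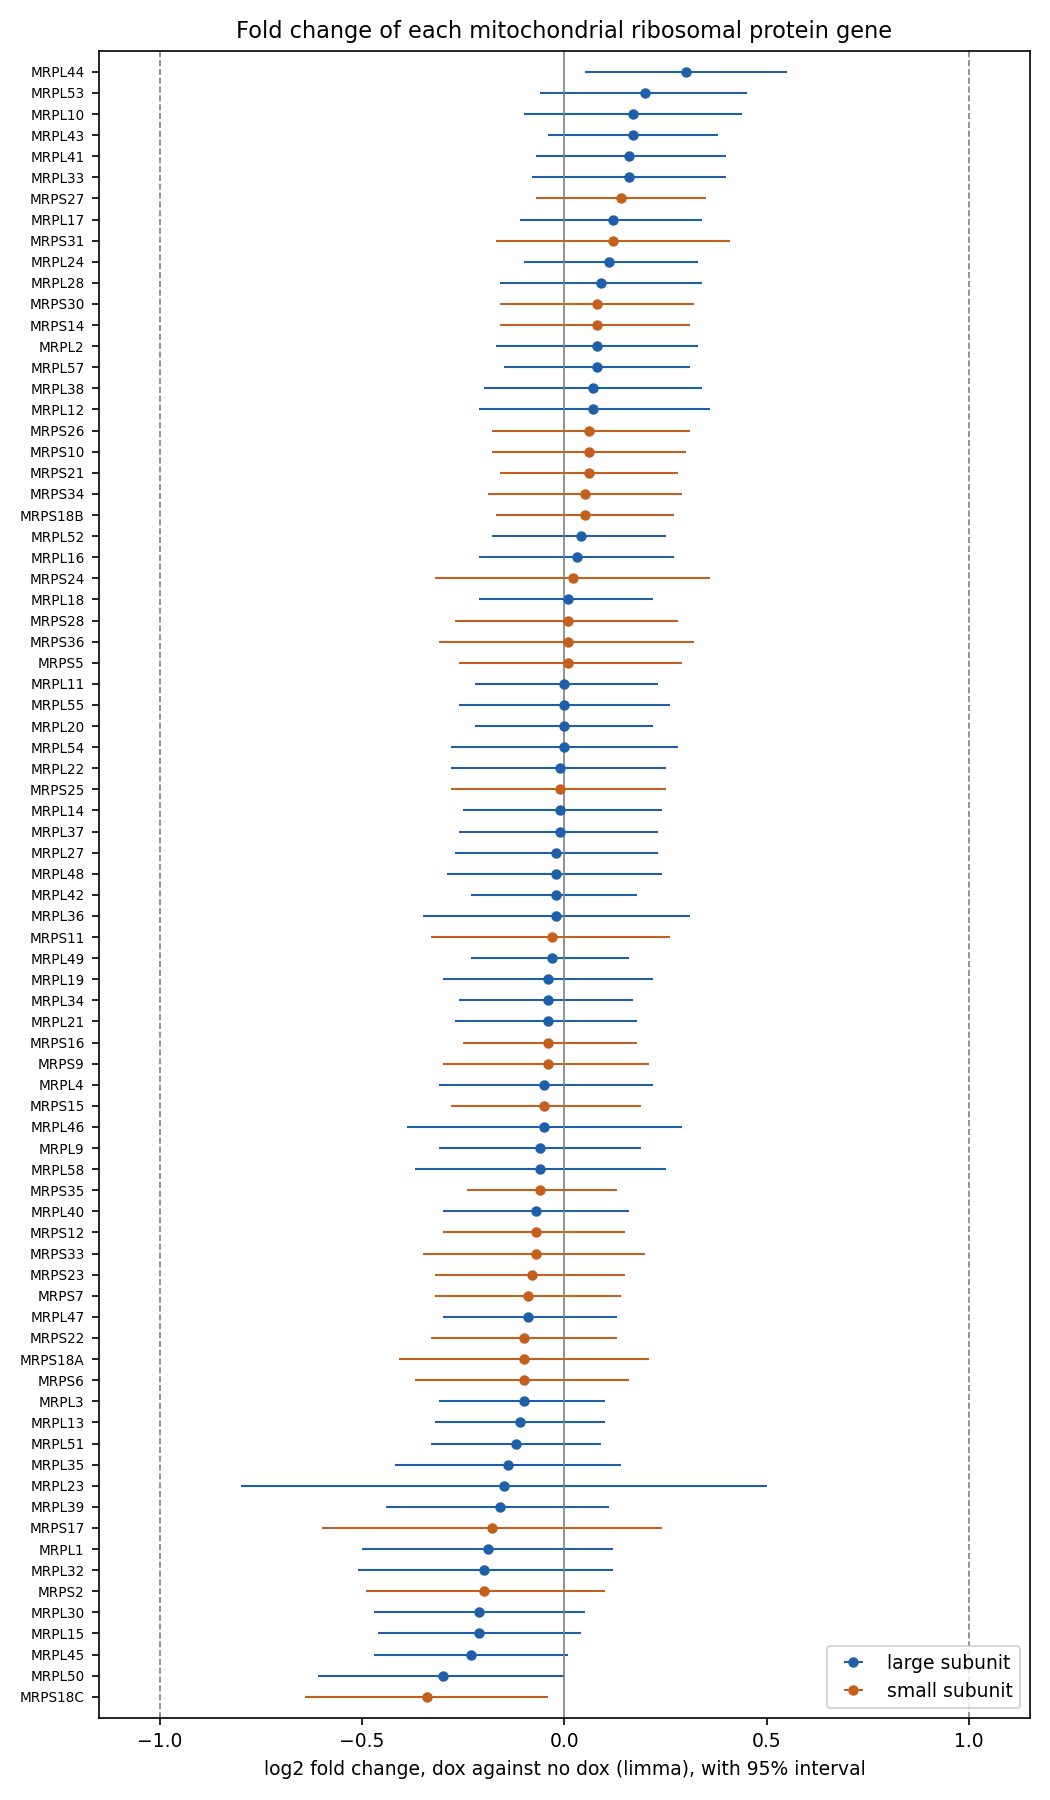
The log2 fold change of dox against no dox is plotted for the 78 genes as points with limma's 95% intervals, large subunit in blue and small subunit in orange, and dashed lines mark a 2-fold change. All 78 intervals lay inside the dashed lines, and only those of MRPL44 and MRPS18C left out 0.

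The intervals set how large a change the data still allow. The 95% interval of the log2 fold change lay within -0.5 to 0.5 for 72 of the 78 genes and within -1 to 1 for all 78, but within -0.25 to 0.25 for only 7. The bounds farthest from 0 were lower ones, -0.80 for MRPL23, the gene with the fewest reads, whose interval ended at 0.50, and -0.64 for MRPS18C. The median size of the log2 fold change, regardless of sign, was 0.07 in the mitochondrial ribosome, 0.16 over all genes tested and 0.10 over the 4228 genes with a mean count in the range of its 10th to 90th percentile (771 to 9337 reads). Of the 78 genes, 96.2% lay between -0.25 and 0.25, against 67.7% of all genes tested.

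The gene with the highest log2 fold change was MRPL44, which codes for a large subunit protein with the fold of an RNase III and lies on chromosome 2 from 223957463 to 223967714. Reads of MRPL44 came to 1910 and 1591 in the libraries without dox and to 1472 and 1616 in those with it. In RPKM these were 46.5 and 41.6 without dox and 55.2 and 51.0 with dox, so that both dox libraries stood above both no dox libraries. The log2 fold change was 0.30 ± 0.12 (SE, limma, unadjusted p = 0.0226, adjusted p = 0.45), and it lay between 0.23 and 0.37 when each library was left out. An exon of MRPL44 is overlapped on the other strand by the lncRNA gene ENSG00000228802. The counting may not have used strand, and the part of that gene was not tested.

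At the other end stood MRPS18C, the closest of the 3 human S18 proteins to its bacterial counterpart, on chromosome 4 from 83455932 to 83469735. It was covered by 985 and 853 reads without dox, against 528 and 511 with it, or 25.5 and 23.7 RPKM against 21.1 and 17.2. Both dox libraries were below both no dox libraries, and the gap between the dox libraries was wider than the step from the lower no dox to the higher dox library. Its log2 fold change was -0.34 ± 0.14 (SE, limma, unadjusted p = 0.0287, adjusted p = 0.468), and -0.48 to -0.20 with each library left out. ABRAXAS1 overlaps an exon of MRPS18C on the other strand. The sister genes lay nearer 0. MRPS18A, whose product sits in the large subunit in spite of its symbol, was at -0.10 ± 0.14 (SE), and MRPS18B was at 0.05 ± 0.10 (SE). MRPS18A had 23.6, 26.0, 24.5 and 21.5 RPKM in no dox replicates 1 and 2 and dox replicates 1 and 2, and MRPS18B had 133.3, 127.4, 141.5 and 126.1. Reads of pseudogenes named after MRPS18A amounted to 10.3% of its own.

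In the large subunit, 20 of the 49 genes had a log2 fold change above 0, and the median was -0.02. MRPL50, a protein found only in mitochondrial ribosomes, had 47.5 and 37.1 RPKM without dox and 39.9 and 28.5 with dox, which overlap. Its log2 fold change of -0.30 ± 0.14 (SE) had an unadjusted p of 0.0518 (limma). MRPL45, which lies at the mouth of the exit tunnel and ties the ribosome to the inner membrane, had 110.7 and 100.7 RPKM without dox and 98.5 and 80.0 with dox. These do not overlap, at a log2 fold change of -0.23 ± 0.11 (SE, unadjusted p = 0.0581). MRPL15, a core protein with a bacterial counterpart, was at 311.9 and 252.3 RPKM without dox and 281.1 and 208.7 with dox, with a log2 fold change of -0.21 ± 0.12 (SE). In MRPL50, MRPL45 and MRPL15 alike, replicate 2 was the lower library of each group.

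After MRPL44, the highest log2 fold changes of the large subunit were those of MRPL53 and MRPL10. MRPL53, a mitochondria-specific protein, had 106.1 and 98.4 RPKM without dox and 130.8 and 101.7 with dox. The second dox library lay between the no dox values in RPKM, but the groups were apart in normalized log2 CPM, at 0.20 ± 0.12 (SE). MRPL10, which anchors the stalk that recruits translation factors, had 22.1 RPKM in both no dox libraries and 22.5 and 25.9 with dox, at 0.17 ± 0.13 (SE). The stalk protein itself, MRPL12, had 39.0 and 36.8 RPKM without dox and 41.9 and 36.4 with dox, at 0.07 ± 0.13 (SE), so its groups overlap. MRPL58, a peptidyl-tRNA hydrolase that frees stalled ribosomes and is also part of the large subunit, was at 109.2 and 89.6 RPKM without dox and 108.4 and 79.0 with dox, at -0.06 ± 0.14 (SE).

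Among small subunit genes, 13 of 29 were above 0 and the median was -0.03. MRPS12, a protein of the decoding site, had 214.2 and 190.2 RPKM without dox and 220.1 and 166.9 with dox, at a log2 fold change of -0.07 ± 0.11 (SE). The spread of its dox libraries enclosed both no dox values. MRPS2 had 18.5 RPKM in both no dox libraries and 14.7 and 16.8 with dox, at -0.20 ± 0.14 (SE), and MRPS17 had 10.5 and 7.70 against 8.93 and 6.85, at -0.18 ± 0.20 (SE). The groups were apart for MRPS2 but not for MRPS17, which rested on 229 to 454 reads a library and whose pseudogenes held 9.48% as many.

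The highest log2 fold changes in the small subunit were those of MRPS27, MRPS31 and MRPS30. MRPS27, a pentatricopeptide repeat protein, had 104.0 and 96.9 RPKM without dox and 116.4 and 104.6 with dox, at 0.14 ± 0.10 (SE). MRPS31 had 23.9 and 21.9 against 26.4 and 22.6, at 0.12 ± 0.14 (SE). MRPS30, which like MRPS18A belongs to the large subunit by structure, had 61.2 and 64.1 against 68.2 and 61.6, at 0.08 ± 0.11 (SE). Of these 3 genes, MRPS27 alone had groups that were apart in normalized log2 CPM. MRPS36, now known as a part of the α-ketoglutarate dehydrogenase complex, had 42.4 and 35.5 RPKM without dox and 44.9 and 32.8 with dox, at 0.01 ± 0.15 (SE).

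The other 50 genes had log2 fold changes between -0.21, for MRPL30, and 0.17, for MRPL43, and mean levels between 18.6 RPKM, for MRPS11, and 365.3 RPKM, for MRPL51. Core proteins of the large subunit that surround the catalytic centre stood close to 0, with MRPL2 at 0.08, MRPL3 at -0.10 and MRPL16 at 0.03. The tunnel protein MRPL22 was at -0.01 and the stalk base protein MRPL11 at 0.00. In normalized log2 CPM, though not in RPKM, the groups were apart in MRPL17 (0.12), MRPL24 (0.11), MRPL41 (0.16) and MRPL43 (0.17), which were higher with dox. The same held for MRPL3 (-0.10), MRPL30 (-0.21) and MRPL51 (-0.12), which were lower. In the small subunit, MRPS5 was at 0.01, MRPS7 at -0.09 and MRPS9 at -0.04. The mitochondria-specific MRPS22, MRPS23, MRPS26 and MRPS34 were at -0.10, -0.08, 0.06 and 0.05. The standard errors of these fold changes were between 0.09 and 0.13, and no unadjusted p among the other 50 genes was below 0.103 (limma).

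The subunits were then set against each other, since tetracyclines bind the small subunit of bacterial ribosomes. The median log2 fold change was -0.02 in the large and -0.03 in the small subunit, a difference of 0.014. Of genes with a bacterial counterpart, 12 of 30 in the large subunit (median -0.02) and 6 of 16 in the small subunit (median -0.04) were above 0. Of the genes listed without a bacterial counterpart, 8 of 19 (median -0.02) and 7 of 13 (median 0.01) were, with subunits taken by symbol. These 13 include MRPS36 (0.01), whose own value is that median and whose product is now placed in another complex. They also include MRPS18A (-0.10) and MRPS30 (0.08), which belong to the large subunit by structure. Counting MRPS18A and MRPS30 with the large subunit and leaving out MRPS36 gave medians of -0.02 over 51 genes and -0.03 over 26. Within a library, the large minus small median of log2 CPM centred on each gene's mean was 0.03 and -0.02 without dox and 0.01 and -0.02 with dox. The sum of RPKM over the large subunit was 2.55 and 2.47 times that over the small subunit without dox and 2.64 and 2.48 times with dox, or 2.51 ± 0.0566 (SD, n = 2) and 2.56 ± 0.113 (SD, n = 2). The groups overlapped in each of these measures.

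The genes of both subunits differed together between the replicates of a group. The centred medians of the large subunit were 0.05 and -0.03 in no dox replicates 1 and 2 and 0.07 and -0.09 in dox replicates 1 and 2. Those of the small subunit were 0.02, -0.01, 0.06 and -0.07. Replicate 1 was thus above replicate 2 in both groups and both subunits. The median of dox replicate 2 minus dox replicate 1 was -0.20 in the large and -0.16 in the small subunit, and 14 of 78 genes were higher in replicate 2, where 50.7% of all genes tested were. For the no dox replicates it was -0.07 and -0.04, with 18 of 78 genes higher in replicate 2, against 48.4%. The median gap between dox replicates, regardless of sign, was 0.20 over the 78 genes and 0.21 over all genes tested. Between no dox replicates it was 0.10 and 0.18. The median size of the fold change over the 78 genes was 0.07, but that sets means of 2 libraries against each other, not single libraries. Without dox replicate 1 the median log2 fold change was -0.11 in the large and -0.09 in the small subunit, and without dox replicate 2 it was 0.06 and 0.03. Reads of the large subunit were 1.23% and 1.14% of a library without dox and 1.25% and 1.10% with dox, and those of the small subunit 0.616%, 0.588%, 0.618% and 0.563%.

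**Figure D2:**
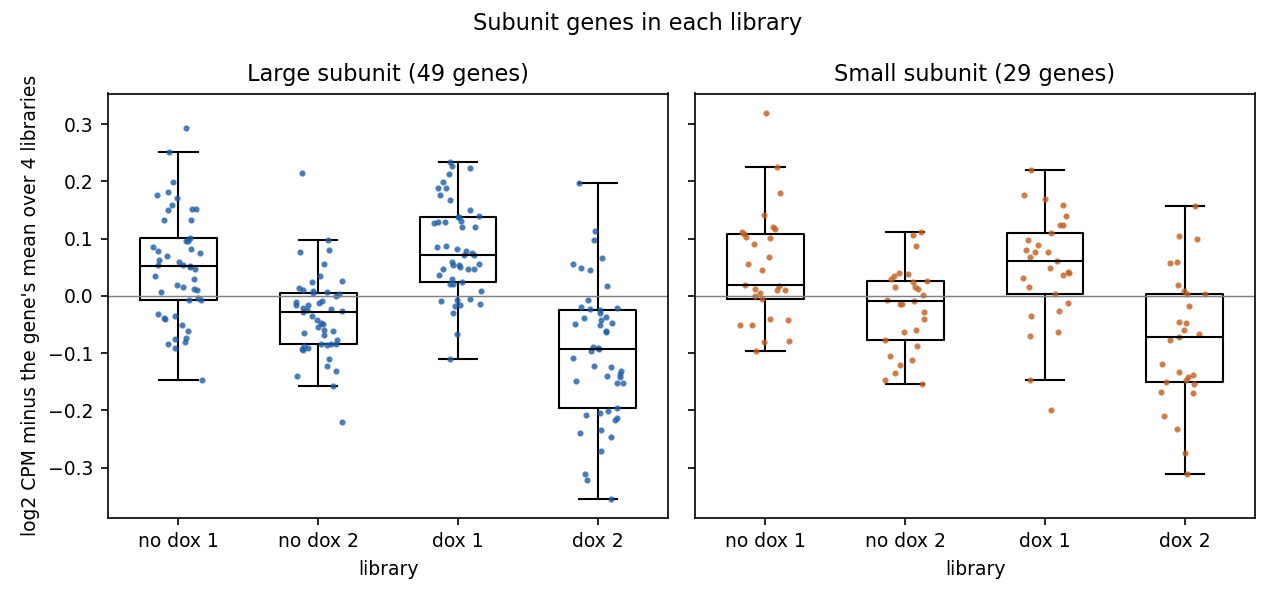
Each point is 1 gene in 1 library, as log2 CPM minus the gene's mean over the 4 libraries, with boxes for the middle 50%, lines for the median and whiskers to the last value within 1.5 box lengths. In both panels replicate 1 lies above replicate 2 within each group, from 0.07 to -0.09 in the medians of the large subunit with dox.

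The log2 fold changes of the 78 genes went weakly with the base composition of their transcripts. GC content was taken from the longest annotated transcript of each gene. Over the 78 genes, Pearson's r of the log2 fold change with it was 0.298 (Spearman's rho 0.307), whereas r was 0.00771 over 16125 genes tested. The points share the same 4 libraries, so this is a description. Across replicates, r of the replicate 2 minus replicate 1 difference with GC content over the 78 genes was 0.361 without dox. It was 0.195 with dox, where the replicates differed more. The 26 genes with the lowest GC content (33.5% to 43.4%) had a median log2 fold change of -0.07 and 7 above 0. The 26 with the highest (51.8% to 66.7%) had a median of 0.00 and 15 above 0. With trends on GC and length taken out of each library, the medians were -0.05 and 0.00. MRPL50 (35.0% GC), MRPS18C (38.9%) and MRPL1 (36.9%, log2 fold change -0.19) belong to the first group, and MRPL53 (58.4%) and MRPL10 (51.8%) to the last. MRPL44, at 44.5%, belongs to neither.

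The genes differ far more from each other than between groups. Mean RPKM over the libraries ranged 659.3-fold, with a median of 96.7 against 5.49 for the 12135 protein-coding genes tested. The median was passed by 77 of the 78 genes, and 44 stood above the 90th percentile of those genes (70.6). Levels per length had a median of 102.9 in the large subunit (middle 50% from 43.3 to 278.8) and 63.8 in the small subunit (31.5 to 118.8). A deposited RPKM depends on the gene model behind it, so the order of the genes is uncertain, also where levels lie far apart. MRPL42 had 29359 reads in no dox replicate 1 and MRPL33 11888, yet their mean levels were 69.4 and 944.1 RPKM. The low end of the range was MRPL23, at 1.43 RPKM, and MRPS17 was next at 8.49 RPKM.

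MRPL33, a small protein with a bacterial counterpart, had the highest deposited RPKM. It was at 976.7 and 795.4 without dox and 1184.6 and 819.8 with dox (log2 fold change 0.16 ± 0.11, SE). It was followed in the large subunit by MRPL13, with 813.7, 675.8, 782.2 and 573.9 RPKM in the same order (-0.11 ± 0.10), and by MRPL14, which lies at the interface of the subunits, with 415.4, 345.8, 447.1 and 318.2 (-0.01 ± 0.11). Each of these was lower in replicate 2 of its group, and the groups overlapped. MRPL33 was above MRPL13 in every library, though their ranges over the libraries overlapped. In the small subunit the highest were MRPS35, with 818.7, 724.6, 784.1 and 651.1 RPKM (-0.06 ± 0.08), MRPS15, with 492.6, 397.6, 488.7 and 364.3 (-0.05 ± 0.11), and MRPS21, with 260.5, 237.5, 292.0 and 223.4 (0.06 ± 0.10). The ranges of these 3 genes over the libraries did not overlap. For MRPS35 the groups overlapped in RPKM, though not in normalized log2 CPM.

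At the low end, MRPL23 stood apart with 1.36 and 1.63 RPKM without dox and 1.51 and 1.23 with dox, on 53, 59, 38 and 37 reads (log2 fold change -0.15 ± 0.31, SE). Its exons overlap MRPL23-AS1 on the other strand. Next came MRPL19, with 18.9, 17.7, 16.4 and 18.2 RPKM (-0.04 ± 0.12), and MRPL4, with 21.9, 24.1, 21.9 and 21.5 (-0.05 ± 0.12), both with bacterial counterparts. In the small subunit the lowest were MRPS17 and MRPS2, given above, and MRPS25, with 10.8, 10.6, 9.90 and 10.8 RPKM (-0.01 ± 0.12). MRPL23 was below every other gene in every library. In normalized log2 CPM the groups overlapped in MRPL23, MRPL19, MRPL4, MRPS17 and MRPS25. In RPKM the lower no dox and the higher dox library of MRPL4 both rounded to 21.9.

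**Figure D3:**
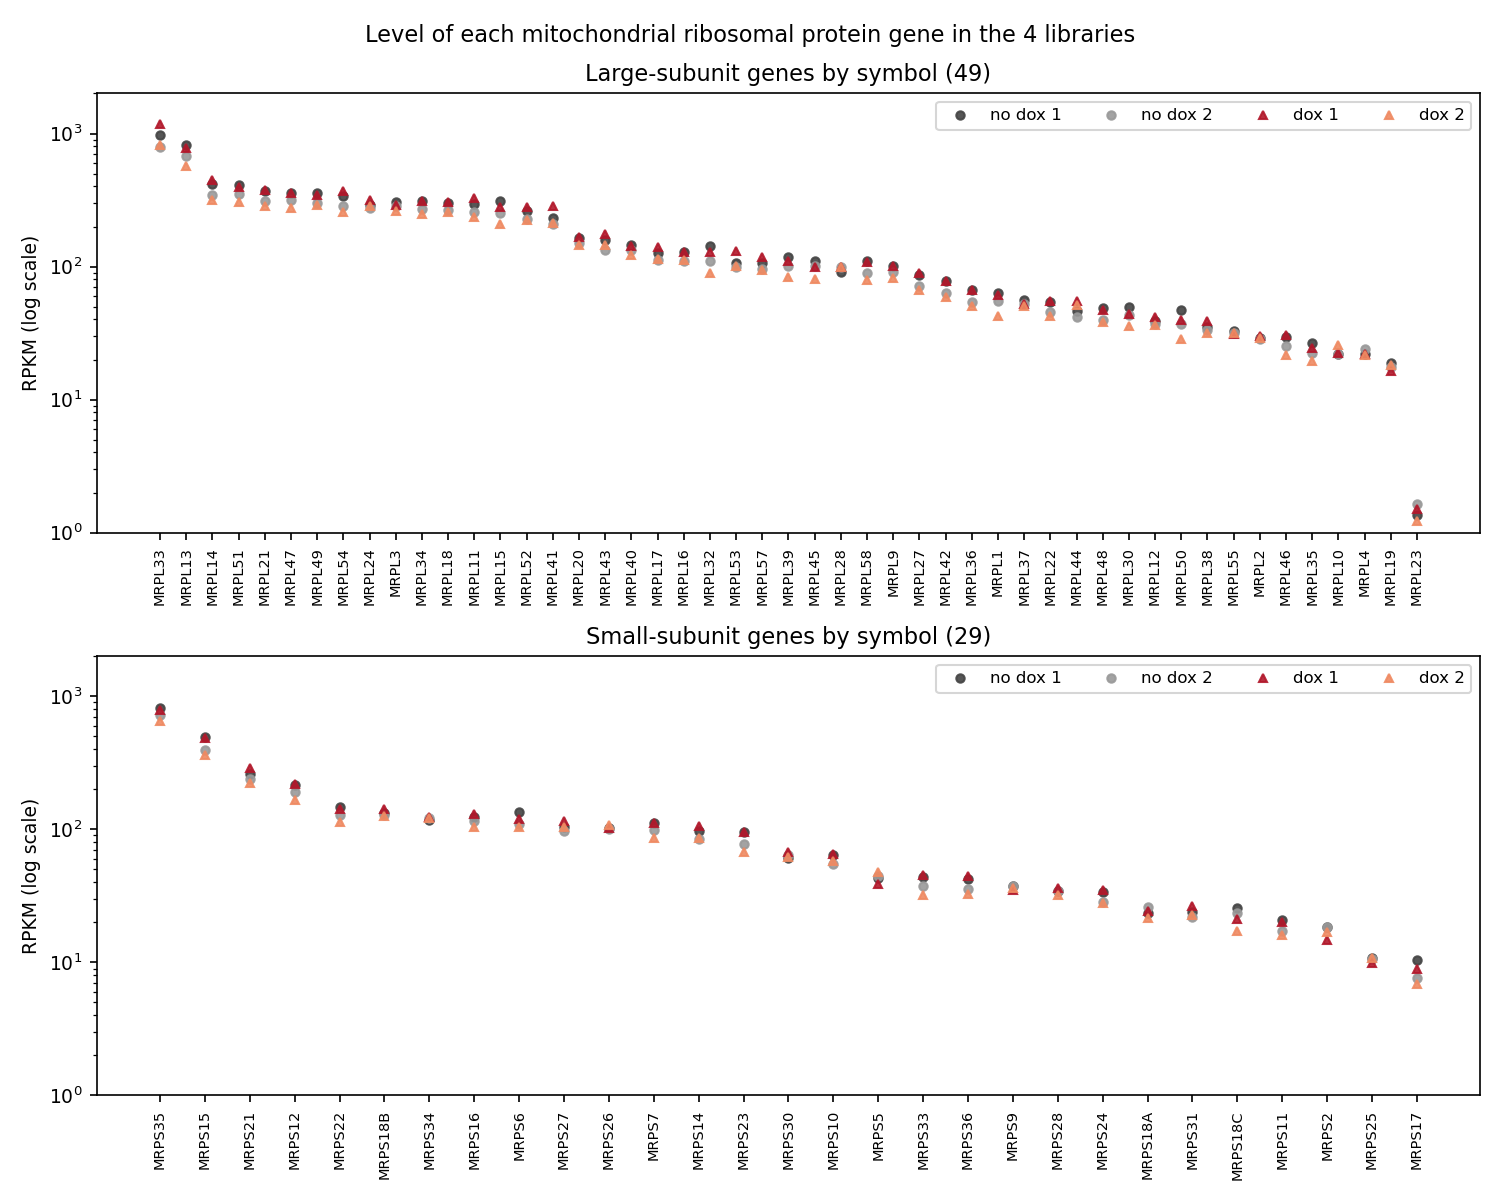
RPKM of each gene in the 4 libraries on a log axis, large subunit above and small subunit below, ordered by mean; circles are no dox and triangles dox libraries. The 4 symbols of a gene lie close together beside the range from 1.23 (MRPL23) to 1184.6 (MRPL33).

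Some counts may hold reads of other genes. Exons of 30 of the 78 genes were overlapped by another gene on the opposite strand and those of 18 on the same strand, and 37 had neither. Pseudogenes named after a member were listed for 36 of the 78, 79 in all, and their reads amounted to between 0.786% and 0.839% of the members' reads in a library. They passed 5% for 5 genes, with the highest share for MRPL3 (20.8%).

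The genes are spread over 21 chromosomes, and 17 of the 78 (21.8%) started within 1000 bases of a protein-coding gene that runs the other way, against 1425 of 12135 protein-coding genes tested (11.7%). MRPL46 and MRPS11 form such a pair with each other, 63 bases apart, with log2 fold changes of -0.05 and -0.03. Others share the start region with genes of respiration or translation: MRPL36 (-0.02) with NDUFS6 (-0.10), MRPL47 (-0.09) with NDUFB5 (0.05), MRPL49 (-0.03) with FAU (-0.04), and MRPS12 (-0.07) with SARS2 (0.27 ± 0.26, SE), which charges the mitochondrial serine tRNA. None of the 16 partners tested had an unadjusted p under 0.05. HELQ, 77 bases from MRPS18C, was at -0.04 ± 0.12 (SE), and ZNF189, 233 bases from MRPL50, at -0.15 ± 0.25 (SE) on 97 reads or fewer in each library.

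The other genes needed for mitochondrial translation were examined by list. Of 5 mitochondrial ribosomal proteins with other symbols, 2 were above 0 (median 0.00). PTCD3, a small subunit protein, had 26.8 and 23.2 RPKM without dox against 21.4 and 20.2 (log2 fold change -0.24 ± 0.11, SE, unadjusted p = 0.0413, adjusted p = 0.518), and DAP3 was at 0.16 ± 0.11 (SE). Of 25 assembly factors, 8 were above 0 (median -0.05) and none had an unadjusted p under 0.05. The lowest p in each direction was that of FASTKD2, which binds the large ribosomal RNA (-0.23 ± 0.11, SE, limma, unadjusted p = 0.0504), and of the GTPase gene MTG2 (0.23 ± 0.15, SE). Of 21 genes that supply charged tRNAs, 11 were above 0 (median 0.00). MARS2, the methionyl-tRNA synthetase, was at -0.45 ± 0.20 (SE, limma, unadjusted p = 0.0425, adjusted p = 0.52), but at -0.15 without dox replicate 1. GATB, a subunit of the enzyme that forms glutaminyl-tRNA, was at 0.22 ± 0.12 (SE).

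Among the 15 translation factors, 6 were above 0 and the median was -0.06. MRRF, which splits mitochondrial ribosomes after termination so that they can start again, had the lowest p on these lists. Its reads were 480 and 403 without dox, against 181 and 185 with it, or 2.07 and 1.86 RPKM against 1.20 and 1.03. Its groups stood well apart, and the log2 fold change was -0.80 ± 0.17 (SE, limma, unadjusted p = 0.000356, adjusted p = 0.166, 95% interval -1.16 to -0.43), between -0.90 and -0.68 with each library left out. The adjusted p missed the threshold. An exon of MRRF is overlapped by RBM18 on the other strand, whose part was not tested. The lowest p in the other direction was that of the initiation factor gene MTIF3 (0.11 ± 0.14, SE), and the other 14 factors lay between -0.17 and 0.11.

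Of the 13 mitochondrially encoded messages, which the mitochondrial ribosome translates, 11 had a log2 fold change above 0 (49.9% of all genes tested did). The median was 0.15 and the range -0.05 to 0.52. At an unadjusted p under 0.05 (limma) there were 5 messages, all higher with dox, where 4.68% of all genes tested were. None passed at an adjusted p of 0.05. MT-CYB, which codes for cytochrome b, had 191.0 and 207.3 RPKM without dox and 265.5 and 258.3 with dox (0.41 ± 0.11, SE, limma, adjusted p = 0.273). MT-ND3, of complex I, had 46.9 and 45.7 against 64.5 and 66.0 (0.52 ± 0.15, SE, adjusted p = 0.302), and MT-ATP6, of ATP synthase, had 96.4 and 102.8 against 134.7 and 118.0 (0.38 ± 0.12, SE, adjusted p = 0.35). In normalized log2 CPM the groups were apart in 7 of the 13 messages, these among them, all higher with dox. Of all genes tested, 19.5% were apart and higher. MT-CO2 (0.24 ± 0.10, SE) and MT-ND2 (0.27 ± 0.12, SE) were the others with an unadjusted p under 0.05, and MT-CO1 (-0.05 ± 0.13, SE) was the lowest. The list's median was 0.15 to 0.24 with each library left out. Its centred median was -0.19 and -0.04 without dox and 0.14 and 0.07 with dox, without overlap. These messages come from 1 genome and long shared transcripts, and several overlap, so that the 13 are not independent. The ribosomal RNAs made beside them were not analysed here, since the authors removed such reads. The counted levels of the messages were modest. MT-CO3, the highest of the 13, averaged 520.8 RPKM and MT-CO1 136.2 RPKM, both below MRPL13 at 711.4 RPKM. Whether the deposited counts hold all reads of these messages was not tested. The values describe the reads counted and may not give the abundance of the messages.

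**Figure D4:**
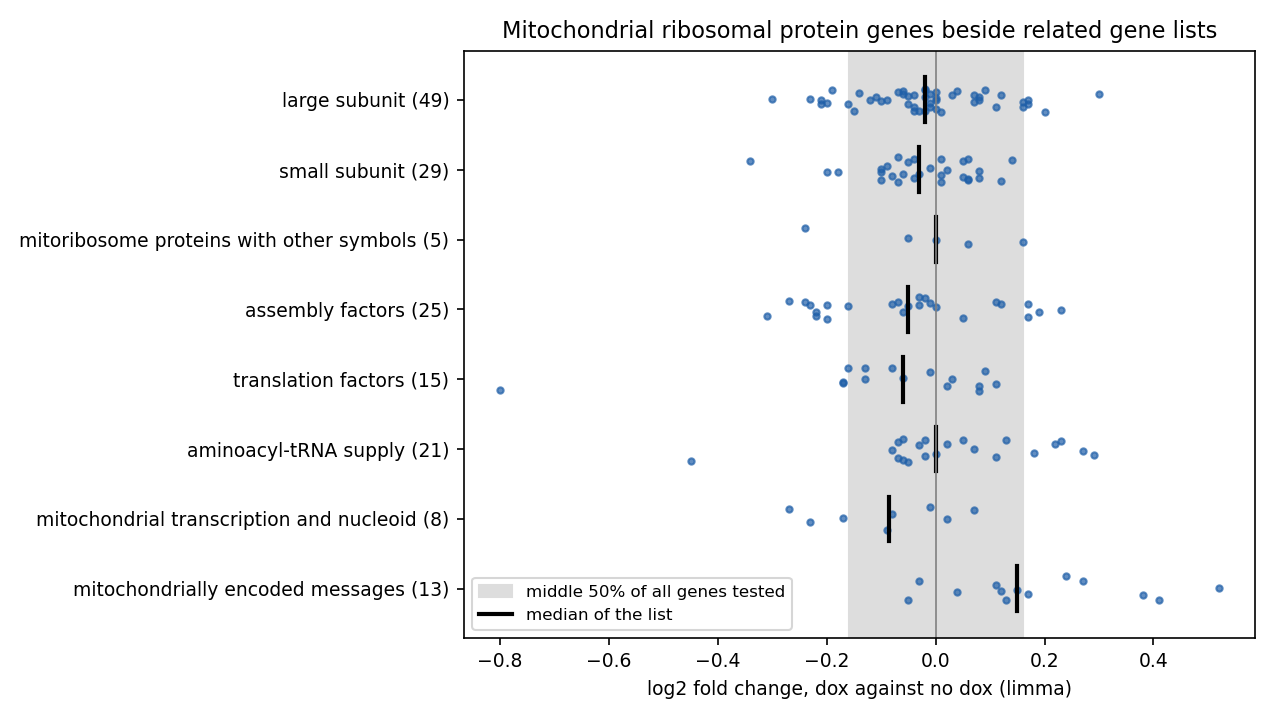
Log2 fold changes of dox against no dox (limma), with 1 point per gene, for both subunits and 6 related lists, black lines for medians and a grey band for the middle 50% of all genes tested (-0.16 to 0.16). The medians of the subunits are -0.02 and -0.03, that of the mitochondrially encoded messages is 0.15, and MRRF is the translation factor at -0.80.

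Genes upstream of these messages and of the ribosome were mixed. Of 8 genes of mitochondrial transcription and the nucleoid, 2 were above 0 (median -0.08). TFAM, which packs mitochondrial DNA and starts its transcription, had read counts of 3883 and 3198 against 2222 and 2025 (-0.27 ± 0.12, SE, limma, unadjusted p = 0.0438, adjusted p = 0.524), and TFB2M was at 0.07 ± 0.11 (SE). Of 9 nuclear regulators, 5 were above 0 (median 0.02) and none had an unadjusted p under 0.05. GABPA, an ETS factor, was at 0.26 ± 0.13 (SE, limma, unadjusted p = 0.0633), NRF1 at -0.22 ± 0.19 (SE) and YY1 at -0.04 ± 0.14 (SE). Of 12 genes of the mitochondrial stress response, 10 had enough reads to be tested, and 4 were above 0 (median -0.05). TRIB3 had 11.5 and 13.2 RPKM against 8.52 and 9.56 (-0.42 ± 0.14, SE, limma, unadjusted p = 0.00997, adjusted p = 0.363). ATF5 rested on 31, 31, 8 and 11 reads (-1.28 ± 0.44, SE, limma, unadjusted p = 0.0117, adjusted p = 0.377). DDIT3, a stress-induced transcription factor, was at 0.17 ± 0.15 (SE).

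Beside the most similar gene groups, 62 of 79 cytosolic ribosomal protein genes and 52 of 81 nuclear genes of oxidative phosphorylation were above 0, with medians of 0.09 and 0.05, against 33 of 78 and -0.02 in the mitochondrial ribosome. At an unadjusted p under 0.05 (limma) there were 5 cytosolic ribosomal protein genes, all higher with dox, and 0 oxidative phosphorylation genes. Of all genes tested, 4.68% were higher and 4.59% lower at that p. In normalized log2 CPM the groups were apart in 31 cytosolic ribosomal protein genes that were higher and 3 that were lower with dox. For oxidative phosphorylation 13 were higher and 9 lower, against 19.5% and 19.1% of all genes tested. The centred medians of the cytosolic list were -0.02 and -0.06 without dox and 0.12 and -0.02 with dox, so that the second dox library shared its value with the first no dox library. The difference between the lists was not tested.

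Total counts were 24398411 and 21207419 in the no dox group, against 15943025 and 17048990 in the dox group. MIB1 itself fell from 598 and 588 reads to 90 and 59, as the labels have it (-2.58 ± 0.23, SE, limma, adjusted p = 0.000375). Of the epithelial markers EPCAM, CDH1, KRT8 and KRT18 were present and KRT19 had 0 reads, which allows up to 3 reads in a library. KRT8 (-0.34 ± 0.11, SE, adjusted p = 0.362) and KRT18 (-0.41 ± 0.13, SE, adjusted p = 0.339) overlap on opposite strands. Lung lineage markers were at 8 reads or fewer, with NKX2-1 and SFTPB at 0. Markers of blood, fibroblast and endothelial cells were at 10 reads or fewer in each library, except COL1A1 with 89, 82, 22 and 83 reads, and PTPRC and CD68 had 0.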

How the data were processed

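RNA was sequenced from 2 no dox and 2 dox samples, grouped by their labels. The authors discarded ribosomal RNA reads, used GSNAP to align to GRCh38 and obtained exon counts with HTSeqGenie. The deposited counts are whole reads per gene, not normalized. The deposited RPKM are reads scaled by gene length and depth, with a further factor per sample. Whether counting used strand, and which library kit was used, is not given in the sources used here. Symbols, exons and overlaps came from GENCODE release 44 and promoters from RefSeq (GRCh38.p14).

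Genes kept by filterByExpr of edgeR 4.0.16 (16181) were scaled by library size and quantile normalized, weighted with voom and compared with limma 3.58.1 (R 4.3.3) and no covariates, with Benjamini-Hochberg adjustment over all of them, after a test on simulated data. Alternatives used edgeR, DESeq2 1.42.0, other scalings and filters, log2(RPKM + 0.1) and log2(RPKM + 1), GC and length correction, the replicate number as a term, and each library left out. The genes named were those with an unadjusted p under 0.05, the extremes of fold change and level in each subunit, 9 chosen for their roles, and the lowest p in each direction of a list. Members, lists and rules were chosen with earlier results of these data known. Intervals and limits cover counting error or the spread between libraries only.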

Additional observations from a re-analysis of the deposited data

How the results depend on the processing

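None of the 78 genes was called in limma or under any of the 10 other fits. The replicate block had 7 of them at an adjusted p of 0.05 or less, regardless of fold, where every other fit had 0 (MRPL50, MRPL15, MRPL45 and MRPS18C lower, MRPL44, MRPL43 and MRPL33 higher), or 8.97% of them against 7.13% of all genes tested, and 78 genes called in all. The count at an unadjusted p under 0.05 under the replicate block was 11 lower and 6 higher, where that fit had 10.1% of all genes tested in each direction. It gave adjusted p-values of 9.73e-05 for MRRF and of 8.64e-07, 0.000666, 0.00449, 0.00522 and 0.0332 for MT-CYB, MT-ATP6, MT-ND3, MT-CO2 and MT-ND2 (limma). Others named that passed 0.05 in it were TFAM (adjusted p = 0.00754), PTCD3 (0.0126), FASTKD2 (0.00915), TRIB3 (0.00571), KRT8 (0.00122) and KRT18 (7.67e-05). The replicate numbers have no stated meaning, and the replicate 1 minus 2 differences of the groups correlated at 0.144 over genes, so the pairing is not established. The count of lower genes was 2 with library size scaling only, 3 with the GC and length trend removed and 0 without a count filter, and the count of higher genes was 0 on log2(RPKM + 0.1). The cause was not tested. Genes called in all were 6, and 5 with DESeq2, 7 with the GC and length trend removed, and 0 without a filter or on RPKM.

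Leaving out each library gave medians from -0.112 to 0.055 in the large subunit and from -0.093 to 0.034 in the small subunit, and a large minus small difference from -0.032 to 0.021. Of 28 named genes, 17 kept their sign in every fit and with each library left out. MRPL14 changed sign to 0.01 in edgeR, 0.02 in DESeq2, 0.00 with TMM and 0.01 with library size only. MRPS36 changed to -0.02 with TMM and on both RPKM scales and to -0.00 in edgeR and with library size only. With a library left out the ranges were -0.12 to 0.03 for MRPL4, -0.02 to 0.17 for MRPL12, -0.15 to 0.15 for MRPL14, -0.13 to 0.04 for MRPL19, -0.27 to 0.15 for MRPL58, -0.17 to 0.03 for MRPS12, -0.17 to 0.07 for MRPS15, -0.41 to 0.07 for MRPS17, -0.04 to 0.15 for MRPS21, -0.08 to 0.05 for MRPS25 and -0.21 to 0.22 for MRPS36. Depth limits MRPL23 most, whose interval ran from -0.80 to 0.50.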
